A study of Mus musculus with 2 samples.

Results

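The genes described here encode the fibroblast growth factors (FGFs), their receptors, and the inhibitors and transcription factors that FGF signalling switches on, in the midbrain of newborn mice. Members were the protein-coding genes named Fgf with a number, Fgfr1 to Fgfr4, Fgfrl1, Spry1 to Spry4, Spred1 to Spred3, Etv1, Etv4, Etv5 and Dusp6. The gene tables held 37 of them among 21474 protein-coding genes; Spry3 was not analysed here. The 37 comprised 22 Fgf genes, 5 receptor genes and 10 feedback or target genes. Total RNA was sequenced in 1 group of 2 libraries, prepared from separately isolated midbrains of healthy mice of strain B6NTac;B6NCrl/Lap at postnatal day 0, males and females pooled. Replicate 1 came from 15 mice, and the labels do not give the number pooled for replicate 2. The labels name no treatment and no engineered allele. With 1 group there was no contrast between conditions, so the values below give the level of each member, its transcripts and the spread between the isolates.

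FGFs bind receptor tyrosine kinases together with heparan sulfate, and the active receptor passes its signal through adaptor proteins to the Ras and MAP kinase cascade. That cascade raises transcription factors of the ETS family and inhibitors of the Sprouty, Spred and Dusp families, which damp the signal again. In the embryo, FGF8 from the isthmus, the boundary between midbrain and hindbrain, patterns the midbrain, while a separate branch of the family, the FGF homologous factors, stays inside the cell and binds voltage-gated sodium channels.

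The libraries held 46685706 estimated counts in replicate 1 and 72779229 in replicate 2. Levels are TPM, the deposited transcript abundance scale corrected for transcript length, so that levels can be compared between genes. RNA was depleted of ribosomal RNA and not selected for poly(A) tails, and 22.4% of the TPM in replicate 1 and 19.8% in replicate 2 lay on protein-coding genes, with 40.2% and 40.0% on the structured RNA Rn7sk alone. Over detected protein-coding genes the median log2 TPM ratio, replicate 2 over replicate 1, was -0.27, so the libraries are compared on scaled counts. All 5 midbrain markers were detected and none of 3 forebrain markers was. The libraries differed in markers of neighbouring tissue. The summed TPM of 4 hindbrain and cerebellum markers (Hoxa5, Hoxb3, Hoxd3 and Atoh1) was 0.30 in replicate 1 and 6.22 in replicate 2, and that of 3 choroid plexus markers was 15.9 and 165.2, most of it from Ttr. Hoxd3 was at 0 counts in replicate 1, and no other marker of these 2 lists was at 0 in either library. In bulk tissue, fewer cells of a type and less RNA per cell cannot be told apart.

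Detection meant 1 TPM or more in each of the 2 libraries, which 53.8% of protein-coding genes reached. Of the 37 members, 21 were detected. The share differed by role. All 4 FGF homologous factors were detected, as were 4 of 5 receptor genes and 10 of 10 feedback and target genes, but only 3 of 18 secreted ligands. The median level of the detected members was 5.58 TPM, beside 7.32 TPM for the 11551 detected protein-coding genes. Of the 16 members not detected, 15 were below 1 TPM in both libraries and 4 (Fgf4, Fgf6, Fgf21 and Fgf22) had no counts in either. Sampling 0 counts still allows a true level of 3 counts, which is 0.0643 CPM (counts scaled to the library total) in replicate 1 and 0.0412 CPM in replicate 2, counting error only. Scaling TPM to protein-coding genes alone raised the number detected to 24, by adding Fgf5, Fgf7 and Fgf15.

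**Figure D1:**
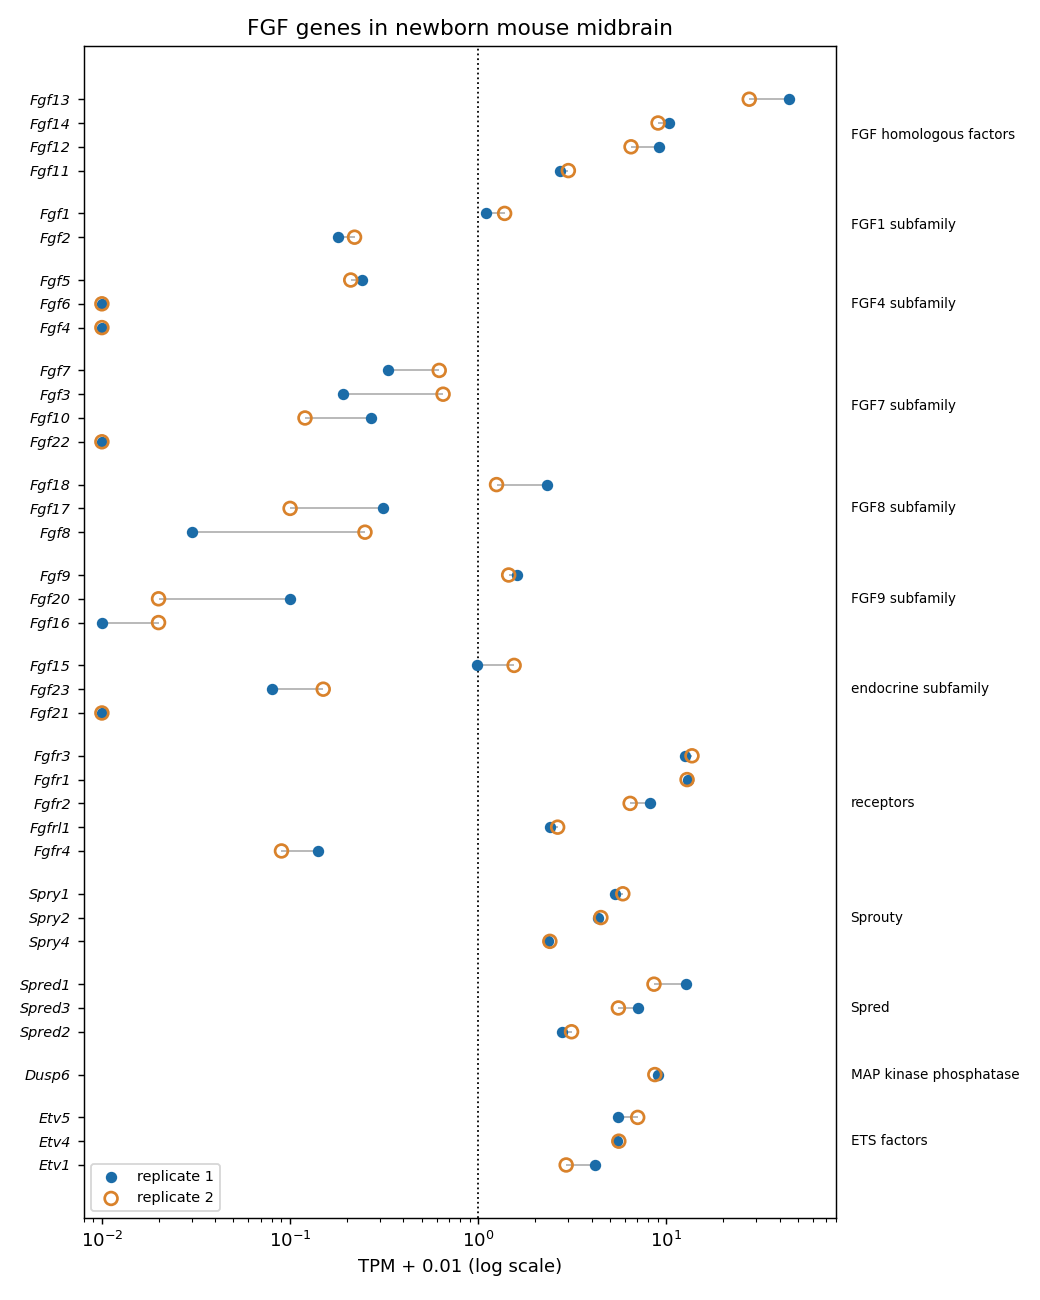
Level of each of the 37 members in TPM, with 0.01 added so that genes at 0 can be drawn on the log axis, in replicate 1 (filled) and replicate 2 (open); the dotted line marks 1 TPM and labels on the right give the role. The FGF homologous factors, receptors other than Fgfr4, and all feedback and target genes lie to the right of the line in both libraries, while 14 of 18 secreted ligands lie to its left in both.

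The FGF homologous factors carried most of the Fgf RNA. Their summed level was 66.9 TPM in replicate 1 and 46.0 in replicate 2, against 7.60 and 7.85 for the 18 secreted ligands, ratios of 8.81-fold and 5.86-fold. Fgf13, which binds sodium channels and microtubules, was the member with the highest TPM, at 44.8 in replicate 1 and 27.5 in replicate 2, and lay above 91.6% of detected protein-coding genes. Fgf14, a sodium channel partner mutated in a human spinocerebellar ataxia, stood at 10.3 and 9.01 TPM. Fgf12 stood at 9.15 and 6.47 TPM. Fgf11 was lowest of these 4, at 2.71 and 3.00 TPM. The order was the same in both libraries, with Fgf13 at least 2-fold above Fgf14 on log2(TPM + 0.1) (log2 ratio 2.11 and 1.60), Fgf14 at least 2-fold above Fgf11 (1.89 and 1.56), and Fgf12 within 2-fold of Fgf14 (-0.17 and -0.47).

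Much of the Fgf13 level rested on short transcript models. Transcript Fgf13-206, a model of 456 bases, carried 43.1% of the gene's TPM in replicate 1 and 18.0% in replicate 2 on 261 and 124 estimated counts. The 2499-base Fgf13-201 carried 31.4% and 35.1% on 2392 and 3040 counts. All models under 1000 bases together held 58.8% and 37.7% of the TPM of Fgf13 but 12.3% and 6.64% of its counts. Over transcripts of at least 1000 bases, Fgf13 measured 18.5 TPM in replicate 1 and 17.1 in replicate 2, or 17.8 ± 0.93 (SD, n = 2), beside 36.1 ± 12.2 over all its transcripts. On that measure, chosen after the values were seen, Fgf13 remained the highest of the 4 homologous factors, but its lead over Fgf14 was 1.79-fold and 1.90-fold, and the homologous factors summed to 5.58-fold and 5.57-fold the secreted ligands.

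**Figure D2:**
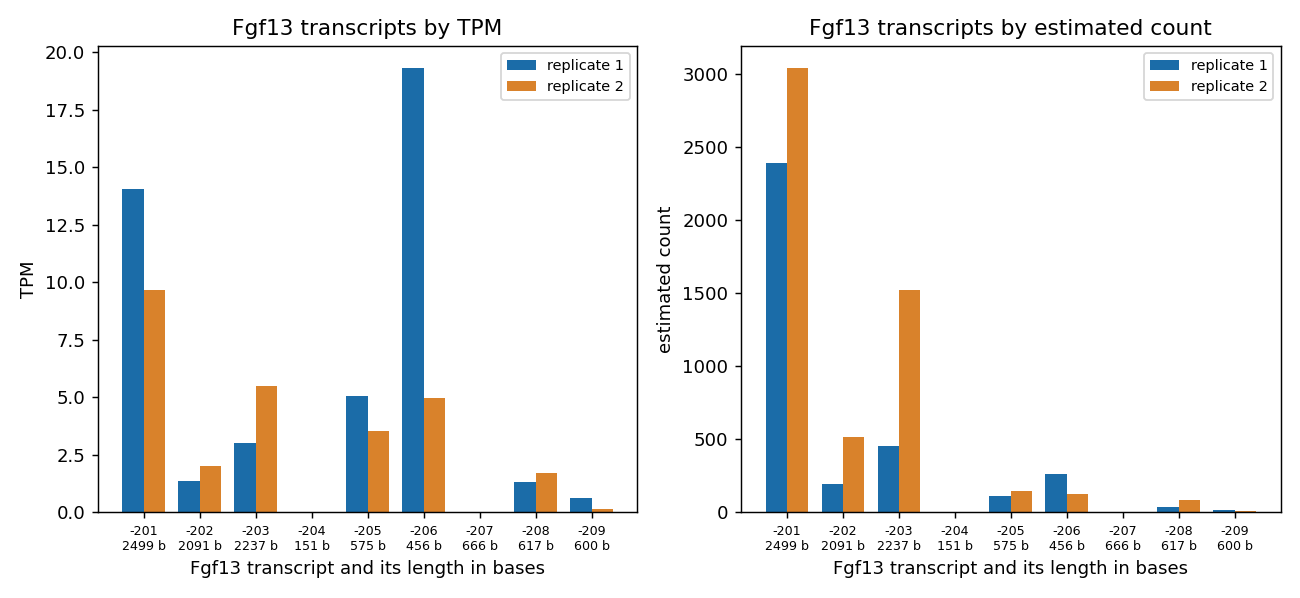
The 9 Fgf13 transcript models by TPM (left) and by estimated count (right), with bars for replicate 1 and replicate 2 and the model length in bases under each name. The 456-base model Fgf13-206 reaches 19.3 TPM in replicate 1 on 261 counts, while Fgf13-201 has the most counts in both libraries, 2392 and 3040.

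Fgf14 was measured on a pair of transcripts that begin with different coding exons, both used. Fgf14-202 held 61.5% of the TPM in replicate 1 and 56.2% in replicate 2, and Fgf14-201 the other 38.5% and 43.8%. Their first coding exons lie far apart on the minus strand of chromosome 14 (GRCm38), that of Fgf14-202 at chr14:124676510-124676717 and that of Fgf14-201 at chr14:124192329-124192521. Each encodes its own amino terminus, the part by which isoforms of these factors are known to differ in their action on sodium channels. The coding bases of both exons are printed here from the GENCODE M21 transcripts, with the start codon in capitals, because they are what separates these isoforms.
Fgf14-202: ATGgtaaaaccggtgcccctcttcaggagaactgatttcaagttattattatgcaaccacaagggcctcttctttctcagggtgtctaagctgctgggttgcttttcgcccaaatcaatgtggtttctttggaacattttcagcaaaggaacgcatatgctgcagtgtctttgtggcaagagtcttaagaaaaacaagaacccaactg
Fgf14-201: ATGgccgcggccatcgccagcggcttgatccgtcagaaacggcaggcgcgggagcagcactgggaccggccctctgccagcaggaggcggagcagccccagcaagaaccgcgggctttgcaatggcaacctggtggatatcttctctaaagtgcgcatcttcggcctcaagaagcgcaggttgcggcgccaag

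The 4 listed sodium channel genes whose products these factors can bind were all detected. Scn2a was at 39.8 TPM in replicate 1 and 26.9 in replicate 2, and Scn3a, a channel of the immature brain, at 27.3 and 17.9 TPM. Scn1a (5.12 and 3.61 TPM) and Scn8a (4.61 and 3.61 TPM) were lower.

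The secreted ligands were low. Fgf18, a member of the FGF8 subfamily, was the highest by mean at 2.30 TPM in replicate 1 and 1.24 in replicate 2 (142 and 136 counts). Fgf9, made by neurons among other cells, was at 1.60 and 1.44 TPM (238 and 374 counts). Fgf1, which lacks a signal peptide, was at 1.09 and 1.37 TPM (308 and 717 counts). All 3 lay close to the limit, and at 2 TPM no secreted ligand was detected. In replicate 2, Fgf18 also used a protein-coding transcript of 991 bases, Fgf18-202, with 34.1% of its TPM and 31.5% of its counts. Over transcripts of at least 1000 bases, which leaves that one out, Fgf18 was at 0.81 TPM in replicate 2. The deposited TPM of Fgf1 lay below its own deposited credibility interval in both libraries, with lower bounds of 1.23 and 1.41 TPM. TPM lay outside its bounds for 8 members in replicate 1 and 6 in replicate 2, and Fgf1 was the only detected member among them.

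Fgf15, the mouse counterpart of the human endocrine factor FGF19 and a gene of the embryonic neural tube, was at 0.97 TPM in replicate 1 and 1.54 in replicate 2. It had a mean near that of Fgf1 but was past 1 TPM in replicate 2 alone. The other endocrine ligands were at or near 0. Fgf23, the phosphate hormone of bone, had 8 and 31 counts (0.07 and 0.14 TPM), and Fgf21, a fasting hormone of liver, had none. Their co-receptors were low as well, Kl at 0.46 and 0.43 TPM and Klb at 0 and 4 counts.

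The other organizer ligands of the embryonic isthmus had few counts. Fgf8 had 1 count in replicate 1 and 12 in replicate 2, and Fgf17 had 32 and 17. Fgf18 was above Fgf17 by a log2 ratio of 2.58 and 2.82 on TPM + 0.1, which is past 2-fold in both libraries. Fgf17 had more counts than Fgf8 in both libraries, but in TPM it was higher in replicate 1 (0.30 against 0.02) and lower in replicate 2 (0.09 against 0.24), where all 12 Fgf8 counts lay on a 630-base model, Fgf8-203. Over transcripts of at least 1000 bases Fgf8 was at 0.02 TPM in replicate 1 and 0 in replicate 2, too little for a ratio to Fgf17. Of the FGF9 subfamily, Fgf20, known as a survival factor for dopamine neurons, had 8 and 2 counts, and Fgf16 had 0 and 2.

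The ligands of the FGF7 subfamily were all under 1 TPM. Fgf7 was at 0.32 TPM in replicate 1 and 0.61 in replicate 2, but 48.2% and 93.5% of that lay on a noncoding transcript model, Fgf7-203. Fgf10 was at 0.26 and 0.11 TPM. Fgf3, a signal of the embryonic hindbrain and inner ear, was at 0.18 and 0.64 TPM. Fgf5, which limits hair growth, was the one FGF4 subfamily member with counts, at 0.23 and 0.20 TPM. Fgf2, which binds heparan sulfate strongly, had 6 and 14 counts (0.17 and 0.21 TPM). All of them were counted on a 754-base model, and the longest Fgf2 model in the tables had 1240 bases, so RNA outside these models was not measured. Fgf2 overlaps Nudt6 on the opposite strand (18 and 106 counts), and Fgf15 an antisense gene, Gm26793 (15 and 38 counts). Among other ligands, Fgf1, a detected one, overlaps Arhgap26 on the opposite strand over 90800 bases, and the counts of Arhgap26 were not matched. Fgf20 overlaps Micu3 (1546 and 2131 counts) and Fgf22 overlaps Rnf126 (1313 and 3101), also on the opposite strand. The libraries were stranded, but whether the counting used strand is not given in the labels. On log2(TPM + 0.1), Fgf2 had a log2 ratio to Fgf1 of -2.14 in replicate 1 and -2.25 in replicate 2, and with 1 TPM added instead the difference was no longer past 2-fold.

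Receptor RNA was well above ligand RNA. Fgfr1 to Fgfr4, the receptors with a kinase domain, summed to 33.8 TPM in replicate 1 and 33.0 in replicate 2, or 4.45-fold and 4.20-fold the secreted ligands. Fgfr3, a receptor of radial glia and astrocytes in the central nervous system, was at 12.6 and 13.7 TPM, and Fgfr1, a receptor of neural progenitors and neurons, at 12.97 and 12.85 TPM. Their order changed between the libraries and they differed by less than the spread. Fgfr2 was at 8.14 and 6.40 TPM, with Fgfr1 above it by a log2 ratio of 0.67 and 0.99. The annotated span of Fgfr2, chr7:130162451-133123350, overlaps many other genes on both strands. Among them are Ate1 on the same strand (3944 and 5111 counts) and Plekha1 on the opposite strand (4521 and 5219). Their effect on the Fgfr2 values was not tested. Fgfr4 was at 0.13 and 0.08 TPM (31 and 33 counts), 0.38% and 0.24% of the 4 receptors' TPM. Fgfrl1, a receptor without the kinase domain, was at 2.39 and 2.63 TPM, which left Fgfr1 above it by a log2 ratio of 2.39 and 2.25.

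Fgfr1, Fgfr2 and Fgfr3 each carry a choice of exon in the third immunoglobulin loop, which sets which ligands they bind. The IIIb exon is typical of epithelia and the IIIc exon of mesenchyme and neural tissue. Both were located in the annotation as coding exons that replace each other between the same neighbours, the first in the direction of transcription being IIIb. The exon pair of Fgfr3, the receptor with the highest IIIc share, is printed from the GENCODE M21 transcripts (GRCm38, plus strand) to show how far the alternatives differ. IIIb has 151 bases at chr5:33731281-33731431 and IIIc has 145 bases at chr5:33732117-33732261. Capitals mark the 81 bases of each that match in a global alignment, an identity of 50.6% over 160 alignment columns.
Fgfr3 IIIb: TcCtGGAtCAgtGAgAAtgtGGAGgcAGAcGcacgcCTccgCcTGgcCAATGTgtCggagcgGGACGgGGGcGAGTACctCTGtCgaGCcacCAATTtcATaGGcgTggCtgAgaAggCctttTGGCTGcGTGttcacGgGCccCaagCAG
Fgfr3 IIIc: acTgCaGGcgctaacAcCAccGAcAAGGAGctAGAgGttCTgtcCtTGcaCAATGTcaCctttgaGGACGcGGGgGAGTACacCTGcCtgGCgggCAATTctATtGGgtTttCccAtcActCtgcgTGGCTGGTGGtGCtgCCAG

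IIIc transcripts dominated over IIIb transcripts in all 3 receptors. Of the TPM on transcripts with one of these exons, Fgfr1 had 95.8% on IIIc in replicate 1 and 98.8% in replicate 2, or 97.3% ± 2.12 (SD, n = 2). Fgfr3 had 100% and 99.9%. Its IIIb transcripts held 0 and 8.08 estimated counts, beside 2757 and 5570 on IIIc. Fgfr2 had 83.0% and 83.2%, or 83.1% ± 0.18, with 142 and 294 counts on IIIb and 953 and 1940 on IIIc. Left out of this share were Fgfr2 transcripts with both exons or neither, at 4.08 and 1.93 TPM, beside 3.36 and 3.72 TPM on IIIc. Nearly all IIIb signal of Fgfr2 lay on 1 model, Fgfr2-211 (0.59 of 0.69 and 0.73 of 0.75 TPM), which has 3053 bases in the tables and 4311 in the annotation that classed its exons, so this share rests on that model. The share of Fgfr2 was below that of Fgfr1 and Fgfr3 in both libraries, by more than the spread. These shares are estimates over whole transcript models that differ at other sites too, not counts of reads across the exon junctions.

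**Figure D3:**
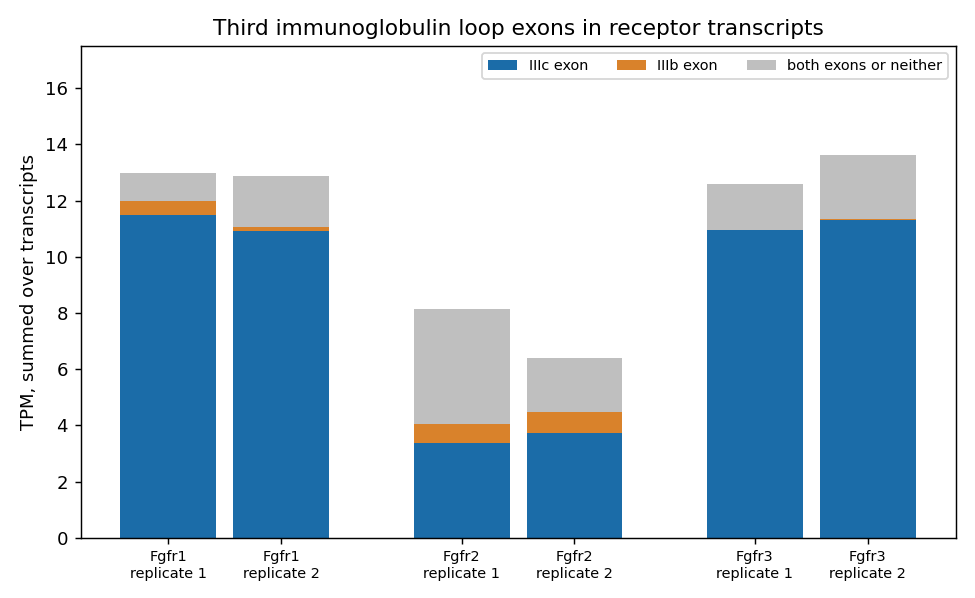
TPM of Fgfr1, Fgfr2 and Fgfr3 in each library, stacked by whether the transcript holds the IIIc exon, the IIIb exon, or both or neither. IIIc fills most of the bars of Fgfr1 and Fgfr3, the IIIb part is visible mainly in Fgfr2 (0.69 and 0.75 TPM), and transcripts with both exons or neither reach 4.08 TPM in Fgfr2 in replicate 1.

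The receptors also differed in transcripts that are not annotated as coding. Protein-coding transcripts held 86.1% of the TPM of Fgfr1 in replicate 1 and 78.1% in replicate 2. The values were 64.3% and 76.1% for Fgfr2, and 74.2% and 85.5% for Fgfr3. Retained-intron models made up 25.5% and 23.3% of Fgfr2 and 25.8% and 14.5% of Fgfr3 by TPM. In Fgfr2 much of this rested on short models. Those under 1000 bases held 25.5% and 23.1% of the TPM of Fgfr2 but 5.78% and 4.40% of its counts. In Fgfr3 they held 16.3% and 10.1% of the TPM but 2.28% and 1.24% of the counts. By counts, protein-coding transcripts held 91.5% and 88.8% of Fgfr1, 78.2% and 94.6% of Fgfr2, and 89.1% and 91.3% of Fgfr3. With protein-coding transcripts alone, Fgfr1 was past 2-fold above Fgfr2 in both libraries (mean log2 ratio 1.05). The exon of the first immunoglobulin loop, whose loss weakens autoinhibition of the receptor, was held by 90.7% and 90.5% of the IIIb and IIIc transcripts of Fgfr1 by TPM, but by 23.0% and 23.0% of those of Fgfr2. In Fgfr3 the share was 85.4% and 97.5%. On protein-coding transcripts alone it was 97.2% and 99.5% in Fgfr1, 23.0% in both libraries in Fgfr2 and 100% in both in Fgfr3. These shares leave out transcripts with both or neither of the IIIb and IIIc exons, which in Fgfr2 held 4.08 TPM in replicate 1 and 1.93 in replicate 2. Among those, Fgfr2-226 held the first loop exon, at 0.83 and 0.04 TPM. The Fgfr2 transcript with most TPM, Fgfr2-207 (29.9% and 41.8% of the gene), held IIIc without the first loop exon, which lies at chr7:130242378-130242644.

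The feedback inhibitors and targets were all detected, with mean levels between 2.37 and 10.6 TPM. Spred1, an inhibitor that brings neurofibromin to Ras, was the highest, at 12.6 TPM in replicate 1 and 8.57 in replicate 2. Spred3 was at 7.07 and 5.54 TPM, and Spred2 at 2.76 and 3.12. Spred1 was past 2-fold above Spred2 in both libraries (log2 ratio 2.16 and 1.43), whereas Spred3 was past 2-fold above Spred2 in replicate 1 alone.

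Dusp6, a cytoplasmic phosphatase of MAP kinases, varied little, at 8.95 and 8.66 TPM. Dusp4, a nuclear phosphatase of the same family, was higher at 16.9 and 15.8 TPM (log2 ratio of Dusp6 to Dusp4 -0.91 and -0.86). Of the Sprouty genes, Spry1 was at 5.31 and 5.85 TPM, Spry2 at 4.32 and 4.47, and Spry4 at 2.34 and 2.39. Their order was the same in both libraries, with neighbours less than 2-fold apart.

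The ETS factors of the PEA3 group lay close together. Etv5 was at 5.52 TPM in replicate 1 and 7.02 in replicate 2, Etv4 at 5.46 and 5.57, and Etv1 at 4.18 and 2.92. Etv5 and Etv4 differed by a log2 ratio of 0.02 and 0.33. Etv1 was the lowest of the 3 in both libraries over all transcripts, past 2-fold below Etv5 in replicate 2 alone. Short noncoding models held 39.1% and 15.5% of the TPM of Etv4 but 8.06% and 4.18% of its counts. Over transcripts of at least 1000 bases Etv4 was at 3.33 and 4.70 TPM and Etv1 at 3.35 and 2.52, so that Etv1 was not the lowest in replicate 1.

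Across all roles, 27 pairs of members (Dusp4 included) were set against each other inside each library on log2(TPM + 0.1), and 14 were at least 2-fold apart the same way in both. A gene with 3 counts or fewer in a library took part in 6 pairs, for which no fold is given, and of the other 21 pairs 9 were past 2-fold. The sign differed between libraries in 2 pairs, Fgfr1 with Fgfr3 and Fgf17 with Fgf8.

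The leading transcript was compared between the libraries. Of the 21 detected members, 4 had a single transcript in the tables, 11 had the same leading transcript in both libraries and 6 (Fgf9, Fgf13, Fgfr3, Spry1, Etv1 and Etv4) had different ones. Among 8547 detected protein-coding genes with several transcripts, 82.8% had the same leader. For Fgf9 the first places in replicate 1 were nearly tied, Fgf9-203 at 42.3% and Fgf9-201 at 41.75%. The short Fgf13-206 led in replicate 1 on 261 counts, while Fgf13-201 had the most counts in both libraries. Shares also moved under a shared leader, as for Fgf18-201 (100% and 65.7%) and Spred2-201 (67.3% and 53.0%). In Spry1 the leading transcript was Spry1-203 in replicate 1 (57.4%) and Spry1-201 in replicate 2 (48.8%). In Fgfr3 it was Fgfr3-209 in replicate 1 (35.3%) and Fgfr3-201 in replicate 2 (43.1%). Protein-coding transcripts held at least 90% of the TPM in both libraries for 16 of the 21. The share of all detected protein-coding genes that reach this limit was not calculated, so the count has no background. The exceptions were Fgfr1, Fgfr2, Fgfr3, Spred3 and Etv4.

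The isolates were compared member by member. Counts were scaled by the trimmed mean method (TMM) and compared as replicate 2 over replicate 1 for the 30 members with a summed count of at least 20. With 1 library on each side there is no test between conditions, and the intervals given are exact 95% intervals for counting error. All 21 detected members were within 2-fold, from a log2 ratio of -0.66 for Fgf18 to 0.71 for Etv4, as were 99.0% of all detected protein-coding genes. The median log2 ratio was 0.27 over the 30 members and 0.01 over all genes. Fgf13, whose TPM differed most in absolute terms, had 3462 and 5435 counts and a log2 ratio of 0.05 (-0.01 to 0.11).

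Only weakly expressed ligands passed 2-fold, 2 of 30 members higher in replicate 2 and 1 higher in replicate 1, where 7.72% and 5.83% of all 17574 genes did. Fgf3 had 28 counts in replicate 1 and 183 in replicate 2, a log2 ratio of 2.09 (1.53 to 2.74). Fgf23 had 8 and 31 counts, a log2 ratio of 1.29 (0.20 to 2.69). Fgf17 had 32 and 17 counts, a log2 ratio of -1.49 (-2.45 to -0.62). The intervals of Fgf23 and Fgf17 reach below 2-fold, that of Fgf3 does not. Fgf15 came just short of 2-fold, with 114 and 333 counts and a log2 ratio of 0.94 (0.63 to 1.27), and Fgf10 on the other side with 77 and 62 counts and -0.91 (-1.42 to -0.41).

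Fgf3 and Fgf15 are neighbours on mouse chromosome 7, at chr7:144838083-144844436 and chr7:144896531-144900953 (GRCm38, plus strand), with Fgf4 between them at 0 counts in both libraries. Fgf23 lies beside Fgf6, also at 0, on chromosome 6. The markers of hindbrain and cerebellum moved in the same direction as Fgf3, Fgf15 and Fgf23. Hoxb3 had 46 and 419 counts, Hoxa5 2 and 432, Hoxd3 0 and 174, and Atoh1 10 and 127. Of the 3 choroid plexus markers, Ttr had 1039 and 21655 counts and Folr1 45 and 208. The other, Kl, had 170 and 296 counts and stayed within 2-fold (log2 ratio 0.20). Their part in the ligand differences was not tested.

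**Figure D4:**
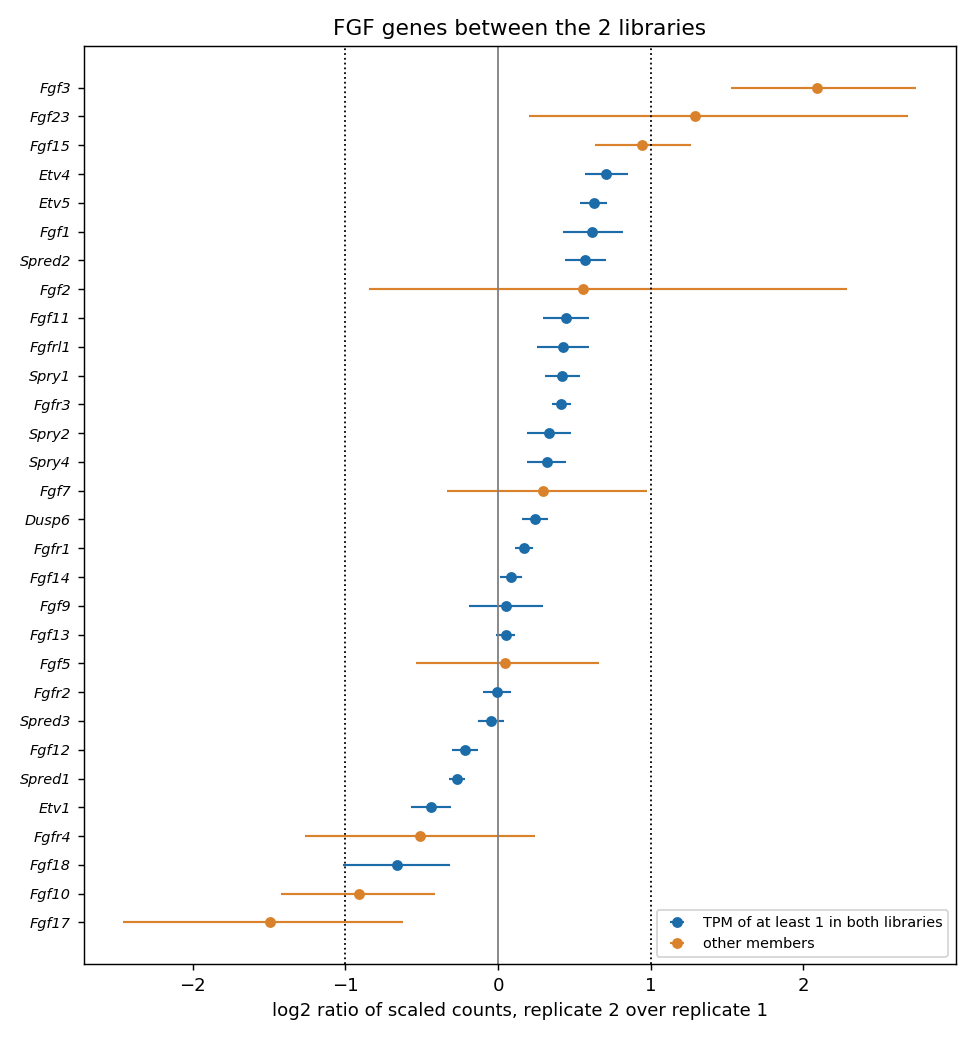
Log2 ratio of TMM-scaled counts, replicate 2 over replicate 1, for the 30 members with a summed count of at least 20, with bars for the exact 95% counting interval; dotted lines mark 2-fold and colours separate detected members from the others. All 21 detected members lie between the lines, and Fgf3 (2.09), Fgf23 (1.29) and Fgf17 (-1.49) lie outside them.

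The rest of the pathway was broadly present. Of 66 other genes in 8 lists, 61 were detected (53.8% of all protein-coding genes were), and 1 was past 2-fold in each direction between the libraries. All 14 genes of the Ras and MAP kinase cascade were detected, at a median of 17.6 TPM, with Araf at 67.2 and 48.0 TPM and Map2k2 at 54.0 and 47.5. All 10 receptor adaptors were detected, led by Frs3 (35.2 and 23.5 TPM), Plcg1 (28.6 and 16.3) and Grb2 (18.5 and 15.7), while Frs2, the docking protein related to Frs3, was at 4.12 and 2.83 TPM.

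Heparan sulfate, which FGFs need to engage their receptors, was represented by 9 of 10 core proteins and 15 of 15 enzymes of its synthesis and editing. Sdc3, a syndecan of the nervous system, was at 137.7 and 134.5 TPM, and Gpc1 at 44.3 and 27.6. Gpc4 was the undetected core protein (0.87 and 0.29 TPM) and the gene past 2-fold higher in replicate 1, with a log2 ratio of -1.28. The sulfatase Sulf2 (27.3 and 22.8 TPM) and the sulfotransferases Ndst1 (20.9 and 19.2) and Hs6st1 (19.1 in both) led the enzymes.

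Of the co-receptors and binding proteins, Flrt2 was at 10.4 and 8.17 TPM, Flrt3 at 7.15 and 6.11, and the FGF carriers Fgfbp3 at 7.66 and 5.57 and Fgfbp1 at 2.16 and 1.65. Of 6 other feedback inhibitors 4 were detected, led by Dusp4 and by Dusp7 (13.4 and 14.5 TPM). Dusp5 was at 0.89 and 2.05 TPM and was the gene past 2-fold higher in replicate 2, with a log2 ratio of 1.48. Dusp9 was at 0.29 and 0.39 TPM.

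**Figure D5:**
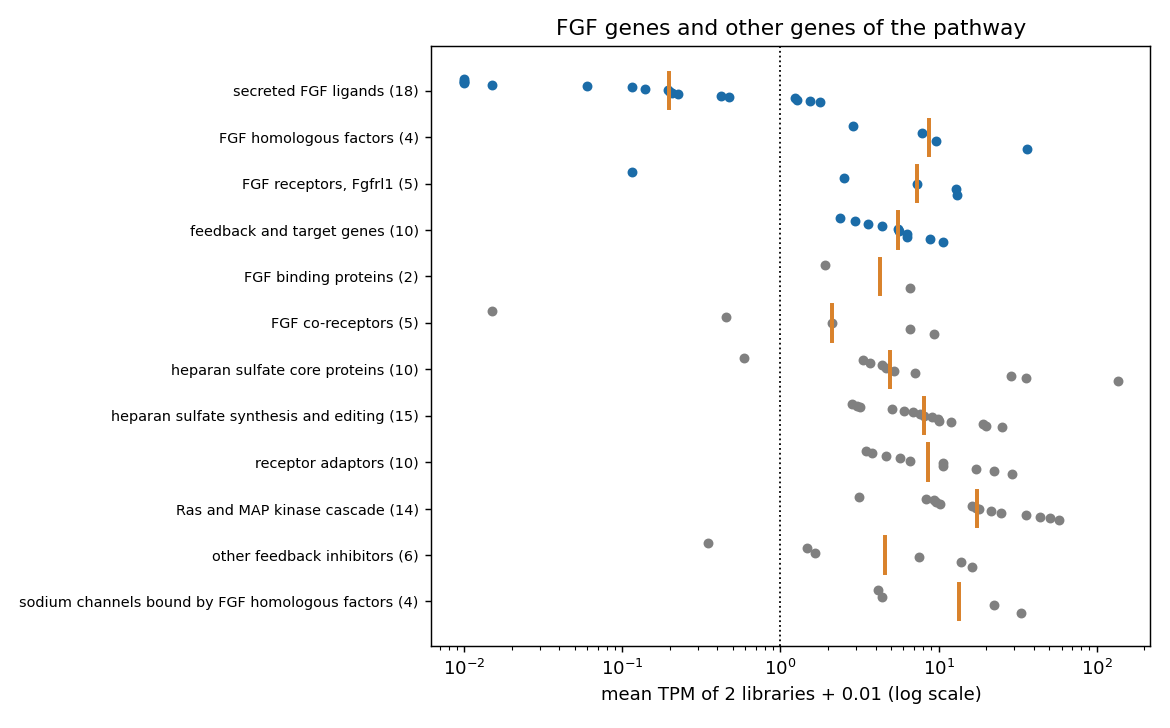
Mean TPM of the 2 libraries, with 0.01 added, on a log axis for each gene of the 4 member groups (blue) and the 8 other lists (grey), with the number of genes in brackets, the median as an orange bar and a dotted line at 1 TPM. Of the 18 secreted ligands, all but Fgf18, Fgf9, Fgf15 and Fgf1 have means below the line, while the receptors other than Fgfr4, the feedback genes and most pathway genes lie above it.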

How the data were processed

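Per the labels, ribosomal RNA was depleted, RNA longer than 200 nucleotides was kept, and stranded libraries were read as pairs of 101 bases. The assembly was mm10 and the annotation GENCODE release M4, per the notes deposited beside the tables. Not given in the sources used here were the aligner and quantifier. The deposited expected counts are estimated counts that need not be whole, and were rounded for scaling. The deposited TPM values are length-corrected abundances over every row, spike-ins among them. FPKM as deposited by the authors served only as an alternative. IsoPct as deposited gives the percent of a gene on each transcript. Symbols, classes, exons and sequences came from GENCODE M21 on the same assembly, which matched 42462 of 43346 gene identifiers; some transcript models differ in length between the releases.

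Scaled ratios used TMM factors of edgeR 4.0.16 in R 4.3.3, with DESeq2 1.42.0 size factors as an alternative. The step was tested on simulated data. Exons were aligned with Biopython 1.88. The counts of the libraries differed by more than sampling noise (chi-square over genes, 51.4 per degree of freedom). The labels give independent isolates of pooled mice, so SDs (n = 2) describe the spread between pools. The members and lists were chosen with earlier results of these data known. Every member is accounted for, detected ones with both values; of the other lists, the text names the 2 to 4 genes with the highest means, those below 1 TPM where absence is described, genes of a pair and members past 2-fold. Frs2, Scn1a, Scn8a and the separate markers were named after their values were seen. 1 further gene that the rule would name is not reported here.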

Additional observations from a re-analysis of the deposited data

How the results depend on the processing

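The number of members detected ranged from 18 at a minimum of 2 TPM, where Fgf1, Fgf9 and Fgf18 were lost, to 24 with TPM rescaled over protein-coding genes, and was 21 to 22 without either replicate. Pathway genes detected ranged from 58 to 62. The count of 3 members past 2-fold between the libraries was 6 with no count minimum, which adds Fgf8, Fgf16 and Fgf20 at 13 counts or fewer in sum, and 1 with a summed count of at least 100, which leaves Fgf3. It was 5 over transcripts of at least 1000 bases, an alternative chosen after seeing the data, which adds Fgf7 and Fgf18, higher in replicate 1. That minimum leaves out the 991-base Fgf18-202. Fgf3, Fgf17 and Fgf23 stayed past 2-fold in the same direction under each of the other scalings, although Fgf23 was at exactly 1.00 on unscaled TPM, where Fgf10 joined them, higher in replicate 1 (4 members). The 14 pairs past 2-fold became 10 with 1 TPM added, where Fgf2 with Fgf1, Fgf18 with Fgf8, Fgf22 with Fgf10 and Fgf15 with Fgf21 were lost, and 16 to 17 without either replicate. Over transcripts of at least 1000 bases, Fgf13 with Fgf14 was lost and Fgfr1 with Fgfr2 gained. The IIIc shares moved by less than 1 SD with protein-coding transcripts alone. No paired analysis was possible because the labels define 1 group. Ratios of ligands with few counts are limited by depth.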
